A study of Mus musculus with 16 samples.

Results

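The 4 groups of mouse livers form a 2 by 2 layout, in which overlap hypoxia combines the sustained and the intermittent exposure. For every gene the log2 change in overlap hypoxia against room air was set against the sum of the log2 changes in the single exposures. The difference, overlap minus sustained minus intermittent plus room air, is called the departure here. A departure of 0 means that both exposures added up on the log2 scale, a negative one that the overlap level lay below that sum and a positive one that it lay above. All 16 libraries of the series entered the contrast: 4 of overlap hypoxia (OH), 4 of sustained hypoxia (SH), 4 of intermittent hypoxia (IH) and 4 of room air (RA). The mice were wild type C57BL/6J, aged 12 weeks, and the tissue label is liver. The protocol text names another organ, the retina, so marker genes were checked. The hepatocyte gene Alb stood at 36100 to 60600 CPM (read counts scaled to library size, with TMM factors) over the 16 libraries. Of 12 photoreceptor genes 2 passed the filter on low counts, and they summed to 3.84 to 11.7 CPM. The labels do not state oxygen levels, length of exposure, feeding, sex or the hour at which livers were taken. Whether the component exposures were equally strong alone and combined is therefore unknown.

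Cells answer a fall in oxygen mainly through the hypoxia-inducible factors (HIF), which turn on genes of glycolysis, vessel growth and red cell production. In liver, oxygen also bears on lipid storage and oxidation, on the circadian clock and on redox defence. Liver also expresses many genes at different levels in males and females under the pattern of growth hormone, among them the major urinary proteins (Mup) and Slco1a1 on the male side and Cux2 on the female side. Intermittent hypoxia is the experimental pattern used for sleep apnoea and sustained hypoxia that for chronic lung disease.

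Library totals ran from 10940275 counts in OH replicate 3 to 64789635 in SH replicate 2. Genes annotated as ribosomal RNA held 9.59% ± 5.82 of counts in OH, 2.16% ± 0.698 in SH, 25.2% ± 7.0 in IH and 5.22% ± 3.71 in RA (mean ± SD, n = 4 each). The mitochondrial genome's own genes held 4.37% ± 2.17 in OH, 1.58% ± 0.121 in SH, 8.44% ± 2.31 in IH and 2.11% ± 0.68 in RA. On the log2 scale the group means of these shares departed by −0.12 for ribosomal RNA, where additive changes would give 10.4%, and by −0.53 for mitochondrial RNA, where they would give 6.32%. Counted in percentage points, a linear scale, the same differences were −12.6 and −3.53. The spread between replicates was also uneven, with a biological coefficient of variation of 0.301 in OH, 0.232 in SH, 0.346 in IH and 0.228 in RA. IH replicate 3 stood apart from all other libraries on the second principal component, with 34.8% ribosomal RNA.

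In the called genes the overlap change was smaller in size than the additive sum, whether the departure was positive or negative. Of 14553 genes tested with edgeR's quasi-likelihood test, 66 (0.454%) were called at an adjusted p under 0.05, 32 with a positive departure (0.22%) and 34 with a negative one (0.234%). The overlap change kept the direction of the additive sum but was smaller in 63 of the 66, and it exceeded the sum in 0. It ran in the opposite direction in Ces4a and Slc25a48 and was 0 in Gm45315, which had 0 counts in OH and RA. Over all 14553 genes the overlap change was smaller than the sum in 68.9%, opposite or 0 in 18.1% and larger in 12.9%. Genes with a small overlap change and a large sum are favoured by the test itself, so these shares are a description. In the 63 genes the overlap change was 1.04% to 50.3% of the additive sum, with a median of 35.3%. At an unadjusted p under 0.05, 2544 genes (17.5%) departed, 1368 positively and 1176 negatively. The last gene inside the threshold had an adjusted p of 0.0498 and the first outside 0.0501.

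**Figure D1:**
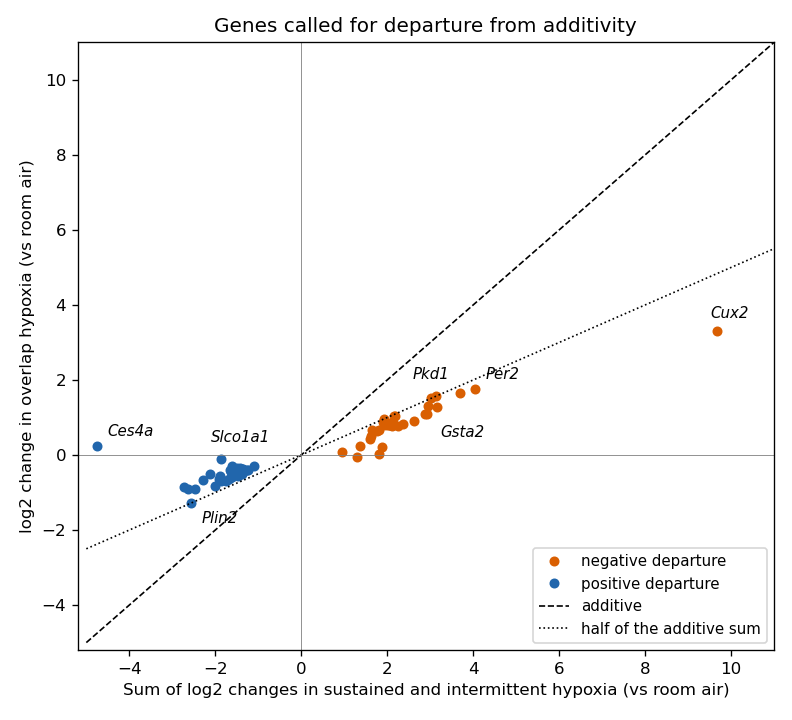
The log2 change in overlap hypoxia (vertical) against the sum of the log2 changes in the single exposures (horizontal), each against room air, for 65 of the 66 called genes; Gm45315, at 0 counts in OH and RA, is left out. The dashed line is additivity and the dotted line a slope of 0.5. All points lie on the side of the dashed line nearer to 0 on the vertical axis, 63 of them in the quadrants where overlap and sum have the same sign and close to or below the dotted line in size.

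The number of calls depended on single libraries. Leaving out a library moved the count by more than 1.5 times in 13 of 16 fits. The calls fell to 42 without RA replicate 1, 2 without RA replicate 2, 3 without RA replicate 3 and 26 without RA replicate 4. They fell to 2, 3 and 5 without SH replicates 1, 2 and 3, to 4 and 2 without IH replicates 2 and 3, and to 2 without OH replicate 4. They rose to 213 without IH replicate 4, 241 without OH replicate 2 and 133 without OH replicate 3. Gsta2 and Per2 kept the call in all 16 fits, with adjusted p of at most 0.0272 and 0.0286. The other 64 genes kept it in 3 to 11 of the 16. All 66 genes kept their sign under each of the 27 alternative settings that could fit them. The count whose overlap change exceeded the additive sum was 0 in every setting on the log2 scale, DESeq2 with its 540 calls included. The 66 were selected for a large departure in these libraries, which the settings reuse, and the test favours small overlap changes. Both results are therefore a description. With the share of ribosomal RNA as a covariate 7 genes were called, 6 of them among the 66 (Ngef, Slco1a1, Per2, Gsta2, Serpina6 and Paqr9). With additivity defined on the linear scale, where the differences in CPM and not the folds add up, 25 genes were called, 8 of them among the 66 (Crot, Dhx40, Slc25a48, Tef, Zpr1, Abcg5, Lrit2 and Gsta2).

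**Figure D2:**
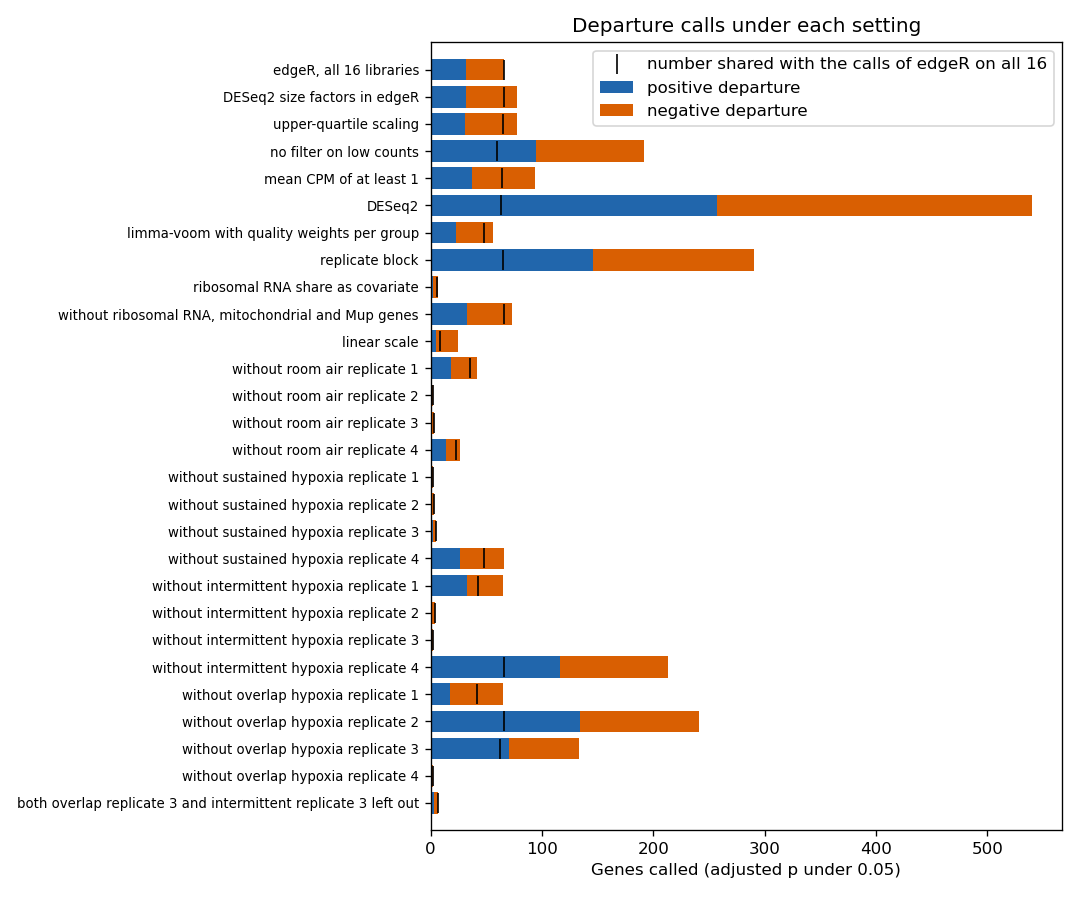
Number of genes called for a departure (horizontal, stacked by sign) under each setting (vertical), with black ticks for the number shared with the 66 calls of edgeR on all 16 libraries. Bars run from 2 genes, as without RA replicate 2, to 540 with DESeq2.

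The departure is the difference between the effects of 1 exposure with and without the other, and these arms share libraries, so they are given side by side. Between OH and SH 24 genes (0.165%) were called, 20 higher and 4 lower in OH. Between IH and RA, where intermittent hypoxia acted alone, 5404 genes (37.1%) were called, 2744 higher and 2660 lower. Between OH and IH 895 genes (6.15%) were called, and between SH and RA 7 (0.0481%). Overlap against room air gave 916 genes (6.29%). At an unadjusted p under 0.05, 2978 genes differed between OH and SH. Single libraries moved several of these counts by more than 1.5 times. OH against SH gave 0 calls without SH replicate 1 or 4 or OH replicate 1 or 3. It gave 1 without IH replicate 1, 2 without RA replicate 2, SH replicate 3 or IH replicate 3, and 3 without SH replicate 2. It gave 14 without RA replicate 3, 15 without IH replicate 4, 43 without IH replicate 2, 48 without RA replicate 1, 95 without RA replicate 4 and 1547 without OH replicate 2. OH against IH gave 16 without OH replicate 4, 171 without IH replicate 2, 217 without IH replicate 3, 451 without OH replicate 2 and 1406 without IH replicate 4. SH against RA gave 2 without RA replicate 2 or 3, SH replicate 2 or 3 or IH replicate 3. It gave 3 without IH replicate 4, 12 without SH replicate 4, 19 without RA replicate 4 and 57 without OH replicate 2. OH against RA gave 174 without RA replicate 3, 229 without OH replicate 3, 273 without RA replicate 4, 278 without OH replicate 1 and 489 without RA replicate 2. The arm IH against RA stayed within 1.5 times in these fits.

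The layout of the called genes is given as a description, since the test draws on the same 4 group levels and favours genes with a large single change and a small overlap change. All 66 were called between IH and RA, 52 between OH and IH, 38 between OH and RA, 3 between SH and RA (Gsta2, Plin2 and Dbp) and 0 between OH and SH. The fitted single changes had the same sign in 65 of 66, with Lrit2 the exception, and in 56.7% of all genes tested. The intermittent change was the larger of the single changes in 65, with Dbp the exception, and in 73.5% of all genes. The overlap change had the sign of both single changes in 62 of the 66 and in 50.1% of all genes. It lay between them in size in 43 (29.6% of all genes), below both in 19 and above the larger in 0. Among the 32 positive calls the median log2 change was −0.48 in OH, −0.46 in SH and −1.22 in IH against room air. Among the 34 negative calls it was 0.82 in OH, 0.53 in SH and 1.65 in IH. The median log2 difference between OH and SH was −0.02 in the positive calls and 0.23 in the negative calls, with median standard errors of 0.164 and 0.182. Between OH and IH it was 0.66 and −0.92. The overlap level was nearer to the sustained than to the intermittent level in 62 of the 66 genes and in 54.4% of all genes.

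The molecular clock is a loop in which CLOCK and BMAL1 (gene Arntl) turn on the Per and Cry genes, whose proteins repress them. The related factors DBP, TEF and HLF carry the rhythm to output genes. Of 18 clock genes tested 3 were called, Per2, Tef and Dbp, all negative, against 0.234% of all genes called negative. Of the 18 values 13 were negative and 5 positive, and the median departure of the list was −0.36 against 0.0026 over all genes. Over all 14553 genes 7306 departures were positive and 7247 negative. In 12669 of the 14553 the sign was opposite to that of the additive sum, which is partly built in. A list that moved in 1 direction in the single exposures therefore tends to 1 sign, and the signs in every list below are a description. The median over the 18 genes was 0.58 in OH, 0.51 in SH and 0.77 in IH against room air on the log2 scale.

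Per2 (ENSMUSG00000055866, chromosome 1, 91415982 to 91459324, minus strand, GRCm38), the period protein at the centre of the repressive limb, had 9.02, 10.3, 8.39 and 5.64 CPM in OH and 5.34, 6.06, 6.23 and 4.01 CPM in SH. It had 12.8, 27.7, 16.3 and 16.3 CPM in IH and 2.47, 2.24, 1.95 and 3.14 CPM in RA. Every IH library lay above every OH library, and every exposed library lay above every RA library. Additive changes would have placed OH at 40.4 CPM, against the measured 8.35 ± 1.98 CPM (SD, n = 4). The departure was −2.28 (SE 0.331, edgeR adjusted p = 0.00714), and the overlap change was 43.7% of the sum.

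Tef (ENSMUSG00000022389, chromosome 15, 81802421 to 81826863, plus strand), a clock output factor, had 69.5, 74.6, 75.3 and 67.3 CPM in OH and 71.8, 74.8, 68.2 and 45.8 CPM in SH. It had 95.2, 112, 122 and 105 CPM in IH and 37.6, 38.1, 36.8 and 53.3 CPM in RA. The OH libraries overlapped those of SH and lay between IH and RA without meeting either. The departure was −1.25 (SE 0.217, edgeR adjusted p = 0.0373), with an additive level of 171 CPM. Dbp (ENSMUSG00000059824, chromosome 7, 45705088 to 45710203, plus strand) had 78.7, 119, 98.0 and 91.5 CPM in OH and 92.8, 126, 100 and 98.6 CPM in SH. It had 75.3, 111, 97.8 and 85.8 CPM in IH and 48.0, 53.8, 33.4 and 51.3 CPM in RA. All 3 exposures overlapped each other at about the same raised level, while additive changes would have given 207 CPM. Its departure was −1.10 (SE 0.234, edgeR adjusted p = 0.0441). Dbp shares 18.0% of its exonic bases with Sphk2 on the other strand, and the strand setting of the counts is not known.

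Of the other clock genes Per3 (departure −1.76, adjusted p = 0.0531), Per1 (−1.48, adjusted p = 0.0869) and Cry2 (−0.78, adjusted p = 0.115) had negative values that did not pass edgeR's test. Clock (1.56, adjusted p = 0.129) and Arntl (1.93, adjusted p = 0.429), of the activating limb, had positive ones that did not pass either. The labels give no hour of collection, and its part in these values was not tested.

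The stretches around the starts of the output genes Tef and Dbp and of the lipid droplet gene Plin2, described below, were chosen to show letters that clock and HIF proteins bind, among 8 promoters searched: the E-box CACGTG and the core ACGTG, which lies within every E-box. The sequences are from RefSeq on GRCm38.p6 and run from 250 bases before to 50 bases after the annotated start, with matches on either strand in capitals. Tef covers chr15:81802423-81802722 on the plus strand, Dbp chr7:45704997-45705296 on the plus strand and Plin2 chr4:86670010-86670309 on the minus strand.
Tef: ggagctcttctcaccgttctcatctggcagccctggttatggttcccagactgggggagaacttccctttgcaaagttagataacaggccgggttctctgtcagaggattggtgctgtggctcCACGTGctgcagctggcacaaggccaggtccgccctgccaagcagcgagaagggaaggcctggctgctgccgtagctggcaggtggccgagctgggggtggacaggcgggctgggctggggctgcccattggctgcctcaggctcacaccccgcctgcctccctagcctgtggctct
Dbp: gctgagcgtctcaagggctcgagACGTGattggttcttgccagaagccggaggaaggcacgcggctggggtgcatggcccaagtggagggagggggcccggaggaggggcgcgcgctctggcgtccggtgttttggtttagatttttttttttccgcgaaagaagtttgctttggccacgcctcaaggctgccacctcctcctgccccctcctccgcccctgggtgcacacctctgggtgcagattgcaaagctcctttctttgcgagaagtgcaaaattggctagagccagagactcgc
Plin2: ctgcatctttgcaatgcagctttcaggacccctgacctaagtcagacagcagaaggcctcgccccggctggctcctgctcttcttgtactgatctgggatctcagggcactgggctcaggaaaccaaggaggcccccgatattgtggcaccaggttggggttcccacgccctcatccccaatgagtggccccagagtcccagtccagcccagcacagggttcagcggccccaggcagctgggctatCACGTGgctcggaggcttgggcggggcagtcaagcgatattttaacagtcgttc
The E-box begins at −127 in Tef and at −4 in Plin2, and the core in Dbp begins at −227. The other 5 promoters searched, of Gsta2, Crot, Nudt7, Mknk2 and Cux2, held none of the letters searched. The RefSeq start used for Gsta2 lies 8643 bases from the gene's start in the GENCODE annotation, and that for Mknk2 1819 bases. Tef, Nudt7 and Cux2 have 2 windows each in the RefSeq table, of which 1 was searched. Per2 has no entry in the table used here.

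The same letters were counted in the windows of all called genes. RefSeq windows were found for 28 of 32 positive and 28 of 34 negative calls. Of 32 windows matched to positive calls 4 held an E-box and 8 the ACGTG core, and of 35 windows matched to negative calls 3 and 4 did. Over all 32851 windows of the same length the E-box was in 7.15% and the core in 19.62%. The D-box TTATGTAA, the site of DBP, TEF and HLF, was in 0 and 1 of these windows against 0.94% of all. The antioxidant response core TGACNNNGC was in 7 and 5 windows against 12.39% of all, and the PPAR direct repeat in 0 and 0 against 0.04%. The ACGTG and TGACNNNGC letters can overlap by chance, and a match is no evidence of binding.

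**Figure D3:**
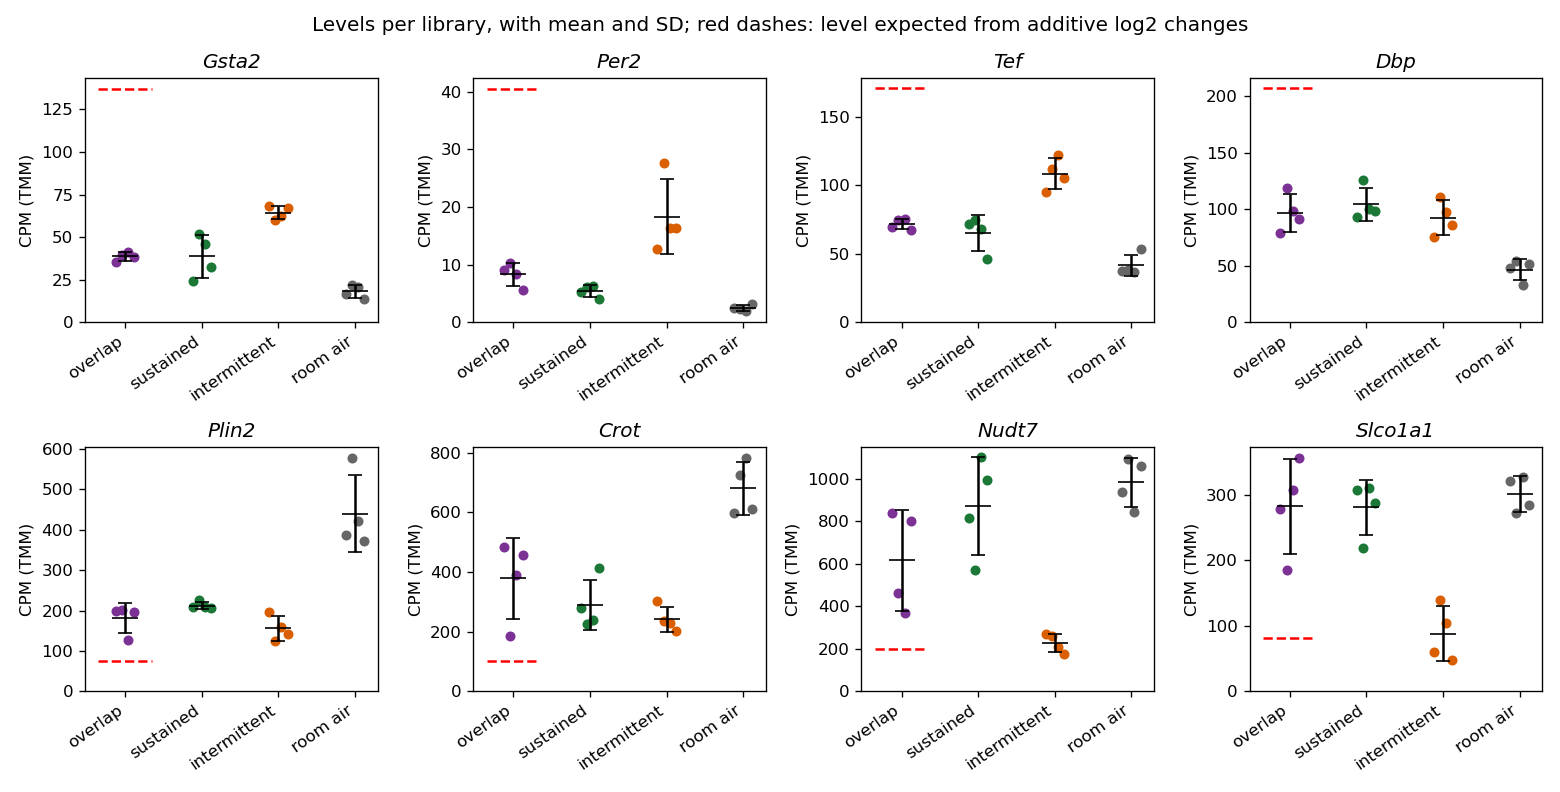
CPM of 8 called genes in each library (points), with mean and SD (bars) for OH, SH, IH and RA from left to right, and the level that additive log2 changes would give in OH (red dashes). In the upper row (Gsta2, Per2, Tef, Dbp) all OH points lie below the dashes, and in the lower row (Plin2, Crot, Nudt7, Slco1a1) all lie above.

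Gsta2 (ENSMUSG00000057933, chromosome 9, 78331018 to 78355788, minus strand), an alpha class glutathione S-transferase that conjugates glutathione to reactive compounds, had the lowest adjusted p of all genes, together with Per2. It had 35.2, 39.7, 41.4 and 38.3 CPM in OH and 24.4, 52.0, 45.7 and 32.6 CPM in SH. It had 68.2, 60.2, 62.2 and 66.9 CPM in IH and 16.6, 21.7, 20.7 and 13.6 CPM in RA. The 4 OH libraries were tightly grouped, inside the range of SH and below every IH library. The OH mean was 38.7 ± 2.63 CPM and the SH mean 38.7 ± 12.5 CPM (SD, n = 4 each), where additive changes would have given 137 CPM (departure −1.83, SE 0.263, edgeR adjusted p = 0.00714). Because 49.8% of its 50-base words also occur in transcripts of other genes, its counts rest on the assignment of reads between related genes. The mu class genes Gstm2 (−1.48, adjusted p = 0.0809), Gstm3 (−1.59, adjusted p = 0.0877) and Gstm1 (−1.07, adjusted p = 0.152) had values of the same sign that did not pass. Of 23 genes on the list of NRF2 targets and glutathione enzymes Gsta2 was the 1 called, against 0.234% of all genes called negative. The list median was −0.25. The NRF2 targets Nqo1 (−0.42, adjusted p = 0.722), Gclc (0.07, adjusted p = 0.943) and Hmox1 (−0.00, adjusted p = 0.997) did not pass edgeR's test.

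Of the lipid genes followed, Plin2 and Crot and the peroxisomal gene Nudt7 were called with positive departures. All 3 were lower in IH than in RA. Plin2 (ENSMUSG00000028494, chromosome 4, 86648386 to 86670060, minus strand), the main coat protein of liver lipid droplets, had 200, 201, 126 and 197 CPM in OH and 209, 226, 208 and 206 CPM in SH. It had 197, 125, 159 and 141 CPM in IH and 388, 579, 421 and 373 CPM in RA. Every exposed library lay below every RA library, and OH overlapped IH. The additive level was 75.0 CPM, and the departure 1.27 (SE 0.244, edgeR adjusted p = 0.0373), with an overlap change 50.2% of the sum. Without OH replicate 3, the 1 low library, the departure was 1.42 (adjusted p = 0.0183), and without OH replicate 4 it was 1.23 (adjusted p = 0.1). Of 14 lipid droplet genes tested Plin2 was the 1 called, against 0.22% of all genes called positive. The list median was 0.59, with 11 values positive, such as those of Abhd5, the coactivator of the lipase ATGL (0.87, adjusted p = 0.0814), and Plin5 (1.19, adjusted p = 0.150), neither of which passed.

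Crot (ENSMUSG00000003623, chromosome 5, 8966033 to 8997324, minus strand), the peroxisomal carnitine octanoyltransferase, had 484, 185, 389 and 456 CPM in OH and 281, 227, 238 and 412 CPM in SH. It had 302, 236, 228 and 203 CPM in IH and 599, 726, 784 and 613 CPM in RA. OH spread over the whole range of SH and IH but stayed below RA. The additive level was 103 CPM and the departure 1.88 (SE 0.346, edgeR adjusted p = 0.0373). Nudt7 (ENSMUSG00000031767, chromosome 8, 114133557 to 114154739, plus strand), which degrades coenzyme A in peroxisomes, had 836, 460, 366 and 798 CPM in OH and 816, 572, 1100 and 993 CPM in SH. It had 267, 258, 207 and 175 CPM in IH and 936, 1090, 844 and 1060 CPM in RA. OH fell into a high and a low pair of libraries, all above IH and below RA. Its departure was 1.61 (SE 0.343, edgeR adjusted p = 0.0446).

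Ephx2, the soluble epoxide hydrolase (0.81), Etfdh, which passes electrons from fat oxidation to the respiratory chain (0.92), and Pla2g12b, needed for lipoprotein secretion (1.02), were also called positive, with adjusted p of 0.0446, 0.0441 and 0.0446. These genes were taken from all called genes after their values were seen. On the list of PPARA targets and fat oxidation enzymes 0 of 28 were called and the median was 0.37. Positive values were found in 23 of the 28, on a list with a median additive sum of −0.64, so the signs are a description. Slc25a20, the carnitine carrier of mitochondria, came nearest (0.76, adjusted p = 0.0629), while Cpt1a, the gate of mitochondrial oxidation, stood at −0.12 (adjusted p = 0.822) and was higher in IH than in RA (log2 0.66, adjusted p = 0.00181). Of 24 genes of sterol synthesis and uptake 0 were called, 24 had negative values and the median was −0.57. That list had a median log2 change of 0.04 in OH, 0.59 in SH and 0.03 in IH. Its median moved to −1.05 without OH replicate 2 and to −1.03 with ribosomal RNA as a covariate. Abcg5, a sterol exporter chosen from the called genes after its values were seen, was called negative (−1.11, SE 0.212, edgeR adjusted p = 0.0373). It had 35.1 ± 6.74 CPM in OH, 31.1 ± 5.84 in SH, 71.6 ± 5.48 in IH and 29.4 ± 2.54 in RA (SD, n = 4).

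Genes with sex-biased expression in liver were followed as 3 lists: male-biased genes, female-biased genes and Mup genes. Slco1a1 (ENSMUSG00000041698, chromosome 6, 141907282 to 141946962, minus strand), a male-biased organic anion uptake transporter, had 278.9, 185.4, 308.1 and 357.1 CPM in OH and 306.7, 218.9, 310.9 and 287 CPM in SH. It had 59.3, 139, 105 and 48.1 CPM in IH and 321, 272, 327 and 284 CPM in RA. The 4 IH libraries were low, and OH overlapped SH and RA. The overlap change was 4.96% of the additive sum, and the departure was 1.78 (SE 0.38, edgeR adjusted p = 0.0487). Of 22 male-biased genes tested 2 were called, Slco1a1 and Nudt7, both positive, against 0.22% of all genes called positive. The list median was 1.22, with 21 of 22 values positive. The median additive sum of the list was −1.56, so the signs are a description. The median log2 change was −0.15 in OH, −0.05 in SH and −1.52 in IH.

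Cux2 (ENSMUSG00000042589, chromosome 5, 121856366 to 122050102, minus strand), a female-biased repressor of male-biased genes, was called negative at very low counts. It had 20 counts over the 4 libraries in OH, 20 in SH, 259 in IH and 2 in RA. With those 2 counts the rate in OH was 12.7 times that in RA, with an exact 95% interval for counting error alone of 3.08 to 112, and the rate in IH was 165 times it (45.1 to 1370). The fitted departure of −6.36 (SE 1.27, edgeR adjusted p = 0.0383) therefore has no firm size. Of 13 female-biased genes tested Cux2 was the 1 called, against 0.234% of all genes called negative. The other 7 of the 20 listed genes did not pass the filter on low counts. Of the 13, Cux2, Cyp2b9 and Hao2 passed only through the IH libraries, where they were high, which by itself gives a negative value. As a description alone, the median over the 13 was −2.37, or −2.30 without Cux2, and 12 values were negative. Cyp2b9 (−9.79, adjusted p = 0.0873) and Cyp2a4 (−8.97, adjusted p = 0.0644) had the largest fitted values and did not pass. Their means were 0.164 and 0.171 CPM in OH, 0.177 and 0.943 CPM in SH, 18.1 and 12.5 CPM in IH, and 0.0435 and 0.142 CPM in RA.

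Of 21 Mup genes, products of male liver secreted into urine, 0 were called. All 21 values were positive, with a median of 1.49, from a median change of −0.44 in OH, −0.48 in SH and −1.75 in IH. Mup7 and Mup20 stand on the male-biased list too. The genes are near copies of each other, so their separate counts are uncertain. Together the Mup genes took 15.3% ± 3.73 of counts in OH, 15.9% ± 5.92 in SH, 5.96% ± 3.23 in IH and 20.1% ± 4.45 in RA (SD, n = 4). The list median was positive in every setting that held these genes, up to 2.74 with ribosomal RNA as a covariate. On the linear scale, in units of each gene's mean level and not log2, it was 0.90. The settings reuse the same libraries, so the shared sign is a description. The growth hormone and STAT5 list itself (12 genes) had 0 calls and a median of −0.14.

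**Figure D4:**
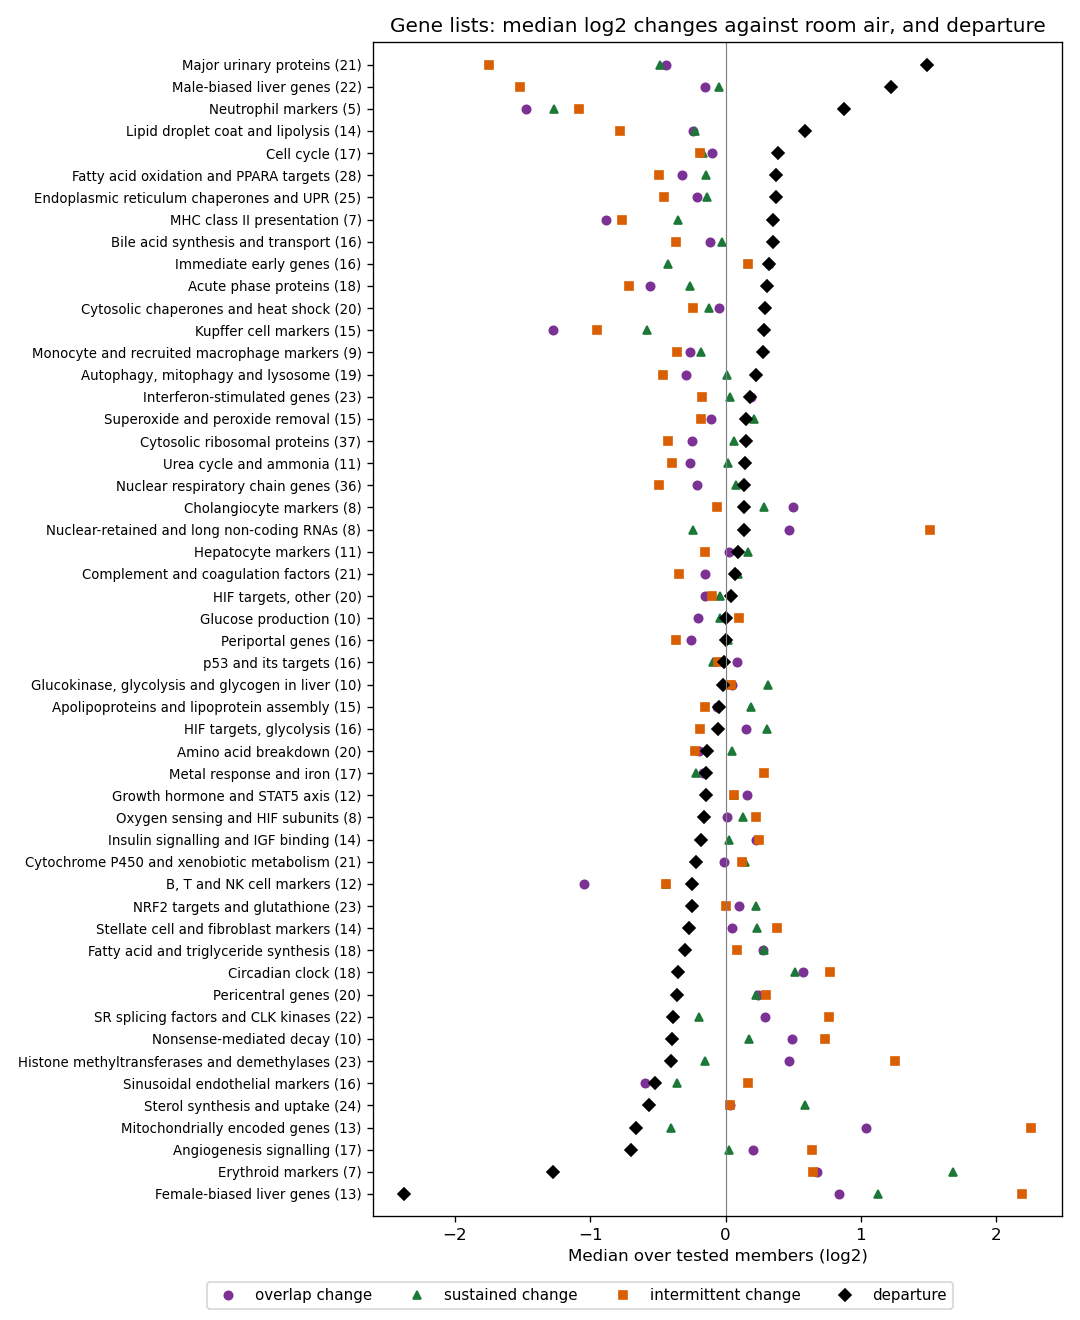
Median log2 change against room air in overlap (circles), sustained (triangles) and intermittent hypoxia (squares) and median departure (diamonds) over the tested members of each list with at least 5 tested; the number tested is in brackets. Diamonds run from −2.37 for the 13 of 20 female-biased genes that passed the filter, 3 only through IH, to 1.49 for Mup genes. They lie opposite to the squares in most rows far from 0. The departure holds the intermittent change with a minus sign, so opposite signs are partly built in and are no result. The p53, monocyte, neutrophil, lymphocyte and sinusoidal endothelial lists also hold members that passed the filter only through IH.

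Among the other called genes, several with negative departures make transport or signalling proteins. Scnn1a, the alpha subunit of the epithelial sodium channel, averaged 7.01 ± 2.13 CPM in OH, 4.58 ± 1.55 in SH, 13.6 ± 3.85 in IH and 2.19 ± 0.729 in RA (departure −2.04, edgeR adjusted p = 0.0373). Mknk2, a kinase of the translation factor eIF4E, averaged 38.2 ± 10.3 CPM in OH, 26.8 ± 6.74 in SH, 53.8 ± 5.51 in IH and 13.3 ± 2.32 in RA (−1.51, adjusted p = 0.0373). Both had stepwise means, with OH between SH and IH. Serpina6, the corticosteroid-binding globulin of plasma, averaged 161.5 ± 66.1 CPM in OH, 212 ± 67.8 in SH, 332 ± 33.8 in IH and 138 ± 15.4 in RA (−1.66, adjusted p = 0.0416). Its log2 overlap change was 11.9% of the additive sum of log2 changes. Pkd1, the polycystin of cilia and cell junctions (−1.55, adjusted p = 0.0446), had the largest share of its additive sum among the 63, at 50.3%. Slc25a37, the mitochondrial iron importer mitoferrin (−1.28, adjusted p = 0.0373), and the exporter Abcc6 (−1.12, adjusted p = 0.0373), chosen after its values were seen, were called too.

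Other negative departures came from genes of varied function. Akap8, a nuclear anchor of protein kinase A, had 15.1 ± 1.82 CPM in OH, 9.61 ± 1.13 in SH, 30.4 ± 6.91 in IH and 8.38 ± 0.797 in RA (−1.20, edgeR adjusted p = 0.0373). Rere, an atrophin corepressor (−1.50), Brpf3, a scaffold of histone acetyltransferase complexes (−1.86), Znrf1, a ubiquitin ligase (−1.66), and Stk11ip, a partner of the kinase LKB1 (−1.72), had adjusted p between 0.0441 and 0.0487. Scand1, a SCAN domain protein (−1.78, adjusted p = 0.0373), shares 40.4% of its exonic bases with Cnbd2 on the other strand, and Znrf1 32.0% with Ldhd. The eye-enriched gene Lrit2 (−1.79, adjusted p = 0.0416) stood out for its layout. Its mean was 1.63 ± 0.674 CPM in OH, 1.39 ± 0.327 in SH, 5.91 ± 0.886 in IH and 1.54 ± 0.294 in RA, so the change with intermittent hypoxia alone was nearly absent in the combination, at 1.04% of the sum.

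Other positive departures came from genes of varied function as well. Clpx, the ATPase of a matrix protease, averaged 33.6 ± 9.85 CPM in OH, 29.9 ± 6.61 in SH, 21.04 ± 4.64 in IH and 62.5 ± 19.9 in RA (departure 1.74, edgeR adjusted p = 0.0446). Yme1l1, a protease of the inner membrane chosen after its values were seen, was called too (1.06, adjusted p = 0.0373). Aasdhppt, which attaches the phosphopantetheine arm to acyl carriers, averaged 17.7 ± 2.46 CPM in OH, 20.1 ± 1.85 in SH, 11.7 ± 0.737 in IH and 26.8 ± 2.75 in RA (1.01, adjusted p = 0.0373). Pllp, a tetraspan membrane protein, averaged 9.22 ± 0.926 CPM in OH, 10.7 ± 2.54 in SH, 5.0 ± 0.627 in IH and 17.3 ± 3.36 in RA (1.57, adjusted p = 0.0215), but 54.2% of its exonic bases lie opposite Gm45767. In these genes the OH and SH means were close and the IH mean was the lowest.

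The other positive calls that the rule named were Tmem263 (1.61), Mppe1, an enzyme of lipid anchor remodelling (1.32), Nlrp12, an innate immune regulator (1.31), Ankrd46 (1.26), Eipr1, a partner of endosomal tethering complexes (1.23), Unc119b, a carrier of acylated ciliary proteins (1.20), Tubb4b, a beta tubulin (1.07), and the helicase Dhx40 (0.89), with edgeR adjusted p between 0.0373 and 0.0481. Tubb4b shares 37.8% of its words with other genes, and 23.6% of the exonic bases of Mppe1 lie opposite Gnal. Ces4a, a carboxylesterase chosen after its values were seen, had the largest positive departure (4.98, SE 0.954, adjusted p = 0.0373), with 1.91 ± 1.04 CPM in OH, 1.10 ± 0.796 in SH, 0.0834 ± 0.0808 in IH and 1.59 ± 0.775 in RA. It had 13 counts in all over the 4 IH libraries, which sets its size. Gm45315, a predicted gene, was at 0 counts in all OH and RA libraries, with 38 in SH and 110 in IH. Its rate in IH was at least 46.6-fold higher than in RA (floor of 3 counts over the group), and 88.0% of its words occur elsewhere. Over all 66, exonic length had a median of 4625 bases in positive and 5732 in negative calls, against 4032 in all genes tested.

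Of 16 glycolytic HIF targets 0 were called, with a median departure of −0.05, and of 20 other HIF targets 0, with a median of 0.04. With 0.454% of all genes called, lists of this size would seldom hold a call, so nothing is read from these counts. Vegfa, the vascular growth factor that HIF turns on, had 42.9, 29.9, 51.9 and 40.5 CPM in OH and 22.5, 29.7, 21.1 and 25.7 CPM in SH. It had 60.9, 74.3, 76.7 and 59.9 CPM in IH and 27.8, 17.0, 21.6 and 23.4 CPM in RA. OH lay below every IH library and above every SH and RA library, and the departure of −0.86 (SE 0.241, edgeR adjusted p = 0.0873) did not pass. Of 17 angiogenesis genes 0 were called, 13 had negative values and the median was −0.70. Kdr, the VEGF receptor, stands on this list and on that of sinusoidal endothelium.

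Cell type markers were followed as lists too. Of 16 sinusoidal endothelial markers 0 were called and 15 had negative departures, with a median of −0.53. Wnt9b among them passed the filter only through the IH libraries, which by itself favours a negative value, so signs and median are a description. The summed level of the 16 markers ran from 78.0 to 140 CPM in OH, 121 to 170 in SH, 185 to 197 in IH and 154 to 189 in RA. Kupffer cell markers (15 genes, 0 called, median 0.28) summed to 119 to 153 CPM in OH, 162 to 246 in SH, 122 to 198 in IH and 219 to 335 in RA. The Kupffer receptor Vsig4 had a departure of 0.60 (adjusted p = 0.323). In whole liver, fewer cells of a type and less RNA per cell cannot be told apart. Hepatocyte markers (11 genes, 0 called) had a median departure of 0.09. Of 12 erythroid markers 7 passed the filter, and Slc25a37 was the 1 called, against 0.234% of all genes called negative. The erythroid list median was −1.28. Its summed level ran from 229 to 1350 CPM in OH, 427 to 2090 in SH, 422 to 851 in IH and 259 to 718 in RA. Hba-a2, an alpha globin (−1.98, adjusted p = 0.258), did not pass, and 89.3% of its words are shared. The part of these cell types in the departures was not tested.

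Of the other genes followed whatever their result, G6pc, the last step of glucose release, came nearest. It had 100, 62.7, 136 and 69.9 CPM in OH and 27.5, 31.0, 58.7 and 32.3 CPM in SH. It had 153, 125, 176 and 152 CPM in IH and 141, 167, 124 and 145 CPM in RA. SH was low in all 4 libraries and OH lay between SH and the other groups, overlapping IH and RA. The departure of 1.23 (SE 0.34, edgeR adjusted p = 0.089) did not pass. Fasn, fatty acid synthase (−0.85, adjusted p = 0.608), Mt1, a metallothionein (−0.59, adjusted p = 0.693), and Alb (−0.03, adjusted p = 0.973) did not pass, and for these the test had a standard error of 0.761, 0.654 and 0.248. Intervals that wide leave large departures of Fasn and Mt1 undetected at this number of libraries.

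Only a few genes stood apart in overlap hypoxia from every other library. In 8 genes (0.055%) all 4 OH libraries lay above the other 12, and in 5 (0.0344%) below. If the group labels had no bearing on the values, shares of about this size would be seen, so nothing is read from these counts. None of these 13 genes was among the 66. A gene whose OH level lies between those of other groups cannot stand apart, so that is a description too.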

How the data were processed

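Whole liver RNA was sequenced in 16 libraries. The authors deposited 1 table of RSEM expected counts, with 55487 genes. The submitters' processing notes name Bowtie 1.3.0, RSEM and GRCm38. Annotation release and strand setting: not given in the sources used here. Symbols and coordinates came from GENCODE M21 (GRCm38), which named 55227 genes. Expected counts were rounded, low genes removed with filterByExpr of edgeR 4.0.16 (R 4.3.3), which left 14553, and libraries scaled by TMM. A robust quasi-likelihood fit with 1 coefficient per group gave the departure and the arms, with Benjamini-Hochberg adjustment over all genes tested in each comparison. SE values come from this fit.

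Genes named were the 12 largest positive and 12 largest negative departures among calls that reached a group mean of 2 CPM, the 10 lowest p, up to 3 called members per list and 12 genes given whatever their result; predicted symbols were passed over. The members, lists and rules were chosen with earlier results of these data known. Nothing in the labels says that the libraries came from separate animals, so p-values reflect only the variation among these libraries, which may be technical. All 24 within-group pairs differed beyond sampling noise (lowest chi-square per degree of freedom 64.4). Alternatives used DESeq2 1.42.0, limma 3.58.1, other scalings and filters, a replicate block, a ribosomal RNA covariate, a linear scale and each library left out; intervals and floors cover counting error only.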

Additional observations from a re-analysis of the deposited data

Results flagged for a closer look

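The departure, a test of whether the effect of an exposure differed with and without the other, called 66 of 14553 genes. The 32 of them named here were followed because they were called, so their number is no result, and in 30 of the 32 the call was lost in at least 1 fit without a library. The log2 departure was −6.36 in Cux2, −2.28 in Per2, −2.04 in Scnn1a, −1.86 in Brpf3, −1.83 in Gsta2, −1.79 in Lrit2, −1.78 in Scand1, −1.72 in Stk11ip, −1.66 in Serpina6 and Znrf1, −1.55 in Pkd1, −1.51 in Mknk2, −1.50 in Rere, −1.28 in Slc25a37, −1.25 in Tef, −1.20 in Akap8 and −1.10 in Dbp. It was 1.88 in Crot, 1.78 in Slco1a1, 1.74 in Clpx, 1.61 in Nudt7 and Tmem263, 1.57 in Pllp, 1.32 in Mppe1, 1.31 in Nlrp12, 1.27 in Plin2, 1.26 in Ankrd46, 1.23 in Eipr1, 1.20 in Unc119b, 1.07 in Tubb4b, 1.01 in Aasdhppt and 0.89 in Dhx40.

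In 9 of 164 gene and group combinations 1 library lay far from the other 3, and chance gives about 1 in 20 such groups. In OH, Plin2 was low in replicate 3 (126 CPM against 197 to 201) and Fasn high in replicate 2 (387 CPM against 69.7 to 86.4). In SH, Aasdhppt was low in replicate 2 (17.3 CPM), Plin2 high in replicate 2 (226 CPM) and G6pc high in replicate 3 (58.7 CPM). In RA, Tef (53.3 CPM) and Ankrd46 (28.3 CPM) were high in replicate 4, Cux2 was detected in replicate 2 alone (0.0377 CPM) and Hmox1 was low in replicate 3 (6.48 CPM).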

How the results depend on the processing

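On the log2 scale the 66 calls became 78 with DESeq2 size factors or upper-quartile scaling, 94 with a CPM filter, 56 with limma-voom and 73 without ribosomal, mitochondrial and Mup genes. They became 192 without a filter, 540 with DESeq2, 7 with ribosomal RNA as a covariate, and 25 on the linear scale. Without both OH replicate 3 and IH replicate 3, a choice made after seeing the data, 7 were called. Leaving out 1 library each gave 2 to 241. The replicate block, which pairs libraries by the number in their labels, gave 290 calls, 65 of them among the 66. Same-numbered libraries correlated at −0.103 to 0.183 over 24 pairs, 4 of them over 0.1, and other pairs between groups at −0.22 to 0.198. Of 16 libraries 8 correlated best with their own number, more than an even draw over the 4 numbers gives. Whether the numbers mark pairs is unknown, and the labels do not say. The fit behind the 66 calls used no pairs.

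OH minus IH (895 calls) gave 1584 with DESeq2, 299 with limma-voom, 4 with the ribosomal RNA covariate, 354 without both libraries and 16 to 1406 with 1 library left out (16 without OH replicate 4, 171 and 217 without IH replicates 2 and 3, 451 without OH replicate 2). SH minus RA (7) gave 61 without a filter, 175 with DESeq2, 156 with limma-voom, 21 with the replicate block, 4 with the covariate and 2 to 57 with 1 library left out. OH minus SH (24) gave 86 with upper-quartile scaling, 354 without a filter, 156 with a CPM filter, 896 with DESeq2, 2 with limma-voom, 126 with the replicate block, 57 without ribosomal, mitochondrial and Mup genes, 0 with the covariate, 0 without both libraries and 0 to 1547 with 1 library left out. IH minus RA (5404) gave 77 with the covariate and 4292 to 5635 with 1 library left out. OH minus RA (916) gave 1466 with DESeq2, 361 with the covariate, 272 without both libraries and 174 to 1186 with 1 library left out. Fits that leave out a library have fewer samples; the cause of the other shifts was not tested.

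For the 41 genes followed, 695 values kept direction and side of the threshold, 386 lost the call, 4 gained it and 21 changed sign. The last were all of Alb and Hmox1, near 0 from the start. Alb turned to 0.00172 without a filter and 0.0592 without both libraries. With 1 library left out its values ran from −0.146 to 0.094, on both sides of 0. Hmox1 turned to 0.0247 without a filter, 0.0721 with limma-voom, 0.00594 with the covariate and 0.135 without both libraries. On the linear scale, in units of the gene's mean level, it was 0.0275. With 1 library left out the values of Hmox1 ran from −0.266 to 0.16, also on both sides of 0.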

Other observations

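The 13 genes whose 4 OH libraries lay apart from the other 12 were chosen by their values and are given as a description. Above stood Vdac2, a channel of the outer mitochondrial membrane, with 71.2 ± 4.41 CPM in OH, 54.5 ± 6.32 in SH, 65.2 ± 2.41 in IH and 48.9 ± 2.23 in RA (SD, n = 4). Galnt4, which starts mucin-type sugar chains, had 7.05 ± 1.3 CPM in OH, 4.53 ± 0.640 in SH, 4.84 ± 0.626 in IH and 4.22 ± 0.556 in RA. Ank, Ccdc149, Eri1, Mblac2, Pip4k2c and 3110070M22Rik were the others above. Below stood Clec4g, a lectin of the sinusoidal endothelium, with 16.7 ± 5.30 CPM in OH, 30.8 ± 4.33 in SH, 26.7 ± 4.09 in IH and 42.6 ± 4.19 in RA, and Cd52, a leukocyte surface peptide, with 2.53 ± 0.331 CPM in OH, 3.72 ± 0.694 in SH, 3.59 ± 0.312 in IH and 5.37 ± 1.40 in RA. Galnt18, Gm42067 and Tlr6 were the others below. The departures of Vdac2 (−0.03), Cd52 (0.02) and Clec4g (−0.21) did not pass edgeR's test (adjusted p = 0.954, 0.985 and 0.713).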
